A study of Oncorhynchus mykiss with 6 samples.

Results

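The miRNAs miR-142, miR-150, miR-155 and miR-223 were followed in the liver of rainbow trout, Oncorhynchus mykiss, of subordinate (SS) and dominant (SD) social status. They were chosen by name: each row of the deposited table that names 1 of these miRNAs was taken, in any form, with any letter and from either arm of the hairpin. This gave 18 of 1389 listed sequences, or 1.30% of them. They held 12171.8 counts, which is 0.107% of all counts in the table. All fish were juvenile, wild type and labelled Walbaum in the strain field, and each library came from the liver of 1 fish after 4 d of interaction in a pair. Small RNA was sequenced from 3 SS fish (labelled 4A, 6A and 1B) and 3 SD fish (4B, 6B and 21A). Status was assigned inside each pair from behaviour: place in the tank, feeding, aggression and fin damage. The SD fish generally took the food offered to both, so that the SS fish in effect fasted, and cortisol was higher in SS fish, so that effects of status, feeding and cortisol cannot be told apart. The counts listed per library ranged from 1183289 in SD fish 4B to 3382970 in SD fish 21A. The share of raw reads with the 3′ adapter was likewise lowest in fish 4B, at 30.2%, and highest in fish 21A, at 81.0%. The part of these in the levels below was not tested.

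These miRNAs mark blood cells rather than hepatocytes. In mammals, miR-142 is made throughout the blood-forming lineages, miR-150 is abundant in mature B and T lymphocytes and represses the transcription factor Myb, miR-155 is induced when lymphocytes and macrophages are activated, and miR-223 is abundant in neutrophils and monocytes. In zebrafish, miR-142 and miR-223 are known from neutrophils as well. A liver holds such cells in its sinusoids and tissue, and in whole liver RNA fewer leukocytes and less miRNA per leukocyte cannot be told apart.

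The 7 sequences that passed the filter on low counts, and the 3p form of miR-155 that did not, are printed because the comparisons rest on them. Names open with the fish whose miRNA was matched (dre for zebrafish, ssa for Atlantic salmon, ipu for channel catfish, fru for pufferfish, ola for medaka), and L or R with a sign gives bases lost or gained at the 5′ or 3′ end, while ss marks substituted bases. They are written 5′ to 3′ as DNA, as in the table, and capitals mark the seed, bases 2 to 8, by which a miRNA pairs with its targets.
dre-miR-142a-5p: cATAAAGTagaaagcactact
ssa-miR-142b-5p_L-2R+1: cATAAAGTagagagtactact
dre-miR-142a-3p_R-1: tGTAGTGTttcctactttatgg
ipu-miR-150_R+1: tCTCCCAAtccttgtaccagtgt
ssa-miR-155-5p: tTAATGCTaatcgtgataggggt
ssa-miR-155-3p_1ss13AC: cACCTAGCatgtcagcattagc
fru-miR-223_R+1: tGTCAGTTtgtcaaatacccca
ola-mir-223-p5: aGTGTATTtgacaagctgagt

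The 5p forms of miR-142a and miR-142b shared 1 seed, which no other sequence of the table carried. They were each 21 nt long and differed by the substitutions A12G and C15T from miR-142a to miR-142b, with positions counted from 1 at the 5′ end. The seed of miR-150 and that of miR-223 were likewise found only among the forms of these miRNAs. The seed of miR-155-5p was also carried by PC-5p-58995_4, a predicted sequence with 4 counts, and that of miR-155-3p by PC-3p-53687_5, a predicted sequence with 5 counts. Seeds were not shared between different ones of the 4 miRNAs.

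miR-142 was the most abundant of the 4. Its forms summed to 10371.8 counts, 85.2% of those of all members, against 1120.5 for miR-150 (9.21%), 436.5 for miR-223 (3.59%) and 243 for miR-155 (1.996%). Levels are given as normalized reads, that is, counts scaled by the authors' size parameter for each library. The mean over 6 fish of miR-142 was 9.74 times that of miR-150, 25.0 times that of miR-223 and 40.8 times that of miR-155. The 7 tested forms were all 21 to 23 nt long, so levels were not scaled for length. How well different sequences were captured in the libraries was not measured, so ratios between miRNAs or arms compare reads only. Against hepatocytes these levels were small, since miR-122, the main hepatocyte miRNA, stood at 398 times the level of miR-142. dre-miR-142a-5p ranked 65 by total count among the 1389 sequences.

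Summed over the 4 miRNAs, normalized reads were 1893, 2173 and 1833 in SS fish 4A, 6A and 1B, against 1947, 2517 and 1585 in SD fish 4B, 6B and 21A. The highest and the lowest fish were both SD, and the groups overlapped. The means were 1966 ± 182 in SS and 2017 ± 470 in SD fish (± standard deviation, n = 3 here and below). As a share of the counts listed in a library, the 4 miRNAs took between 0.0831% in SD fish 21A (95% Wilson interval 0.0801 to 0.0862) and 0.136% in SD fish 6B (0.130 to 0.142). These intervals cover counting error only.

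No leukocyte miRNA passed the test between SS and SD fish. Over the 338 sequences tested by edgeR's quasi-likelihood test, 2 (0.592%) passed an adjusted p of 0.05 and 37 (10.9%) had an unadjusted p under 0.05. None of the 7 tested members was among either, and DESeq2 called none of them. In 62 of the 338 sequences (18.3%) the normalized reads of SS and SD fish did not overlap, and in all 7 members they did. The fitted log2 fold change of SS against SD lay above 0 in 4 members and below 0 in 3. Its median over the 7 was 0.22, against -0.02 over all 338 sequences. When all forms of a miRNA were summed, 149 rows were tested. Predicted sequences without a miRNA number (named PC) stayed single rows among them. None of these passed the adjusted threshold (0%), 11 (7.38%) had an unadjusted p under 0.05 and DESeq2 called 3, and the 4 leukocyte miRNAs were in neither set. The groups did not overlap in 13.4% of the 149, and overlapped in each of the 4. The median log2 fold change over the 149 was 0.09, so summed values near 0 are read against that median.

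**Figure D1:**
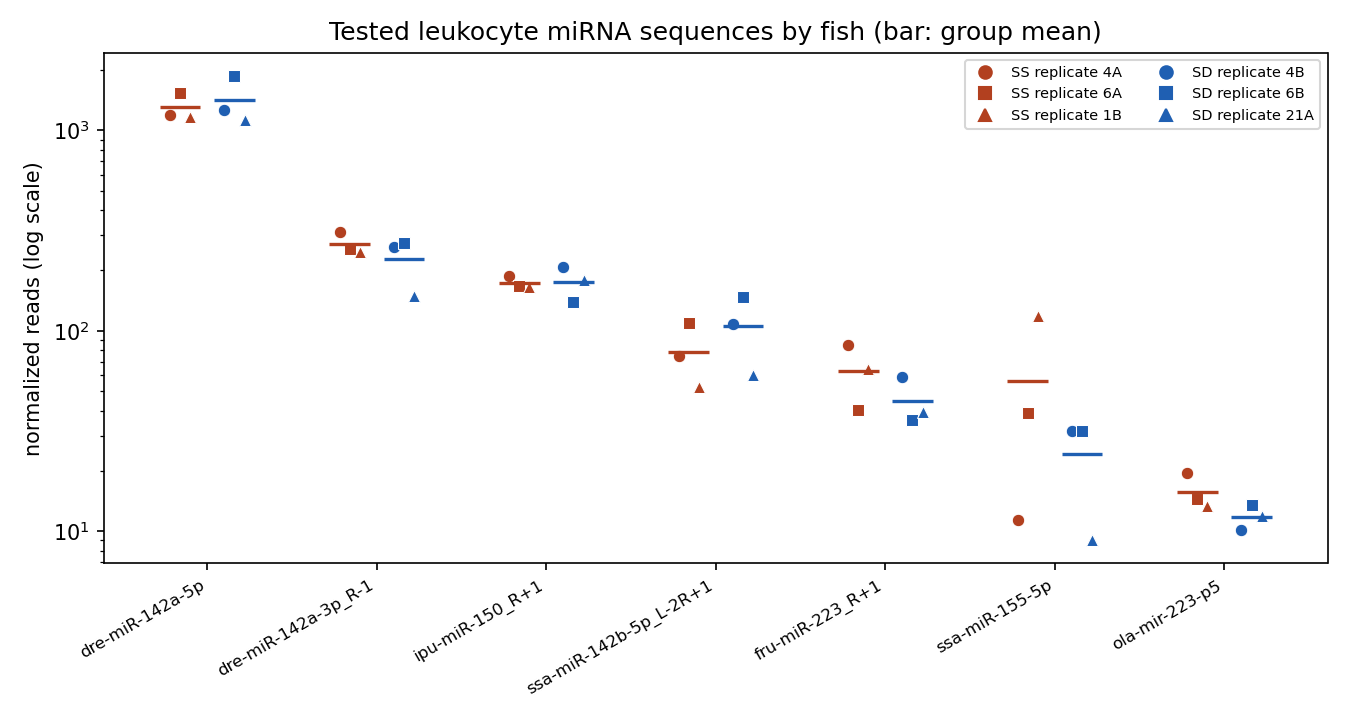
Normalized reads (log scale) of the 7 tested sequences in each fish, with SS fish in red and SD fish in blue. Points are fish, with a symbol for each label, and bars are group means. Points of SS and SD fish overlap for every sequence, and ssa-miR-155-5p has the widest range, from 9.02 to 118.

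miR-142, the general leukocyte miRNA, did not differ between SS and SD livers beyond the spread between fish. Its summed forms stood at 1588, 1909 and 1469 normalized reads in SS fish 4A, 6A and 1B, against 1635, 2293 and 1343 in SD fish 4B, 6B and 21A. Fish 6A and 6B were the highest of their groups, and the lowest value was that of SD fish 21A. The means were 1655 ± 228 in SS and 1757 ± 487 in SD fish, and the log2 fold change was -0.04 (standard error 0.24, adjusted p = 0.945). The 95% interval, from -0.60 to 0.52, allows a level in SS fish between 0.659 and 1.44 times that in SD fish. The sign turned when SS fish 4A (0.01) or SD fish 6B (0.09) was left out.

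dre-miR-142a-5p made up 80.0% of the counts of miR-142, with 1198, 1541 and 1169 normalized reads in SS and 1261, 1866 and 1132 in SD livers, in the order above. It was highest in fish 6A and 6B, and its log2 fold change was -0.15 (standard error 0.26, adjusted p = 0.823). dre-miR-142a-3p_R-1, from the other arm of the same hairpin, stood at 311, 256 and 246 in SS and at 263, 275 and 149 in SD fish. SD fish 21A had the low value, and both others of the SD group lay within the range of the SS fish. Its log2 fold change was 0.22 (standard error 0.30, adjusted p = 0.763), and -0.02 without SD fish 21A.

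The ratio of the miR-142a arms was on average lower in SS fish, with overlapping groups and no call by a test that 3 fish a group limit. The 5p arm outnumbered the 3p arm 3.86, 6.01 and 4.75 times in SS fish 4A, 6A and 1B, against 4.79, 6.78 and 7.60 times in SD fish 4B, 6B and 21A. The 3p share was thus highest in SS fish 4A, at 20.6% (95% Wilson interval 18.8 to 22.5) of the reads of both arms, and lowest in SD fish 21A, at 11.6% (10.4 to 13.01). The mean log2 ratio was 2.26 ± 0.32 in SS and 2.65 ± 0.35 in SD fish, a difference of -0.39 (exact permutation test, two-sided, p = 0.2). With 3 fish against 3 this test cannot go below 0.1. SS fish 6A, at 6.01, lay above SD fish 4B, at 4.79, so the groups overlapped.

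ssa-miR-142b-5p_L-2R+1, the 5p form of the second copy of miR-142, was the most variable of the 3 tested miR-142 forms. Its normalized reads were 74.6, 109 and 52.3 in SS and 108, 148 and 60.3 in SD fish. Each group had its low fish, 1B among SS and 21A among SD fish. The log2 fold change was -0.45 (standard error 0.43, adjusted p = 0.695), and ranged from -0.76 without SD fish 21A to -0.12 without SD fish 6B. As a share of all reads of the miR-142a-5p and miR-142b-5p forms, it ranged from 4.28% in SS fish 1B (95% Wilson interval 3.30 to 5.53) to 7.89% in SD fish 4B (6.43 to 9.66), with means of 5.59% ± 1.20 in SS and 6.77% ± 1.50 in SD fish. These 2 forms are near-identical and mapping could assign reads of 1 to the other, although neither had a fractional count in any library.

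**Figure D2:**
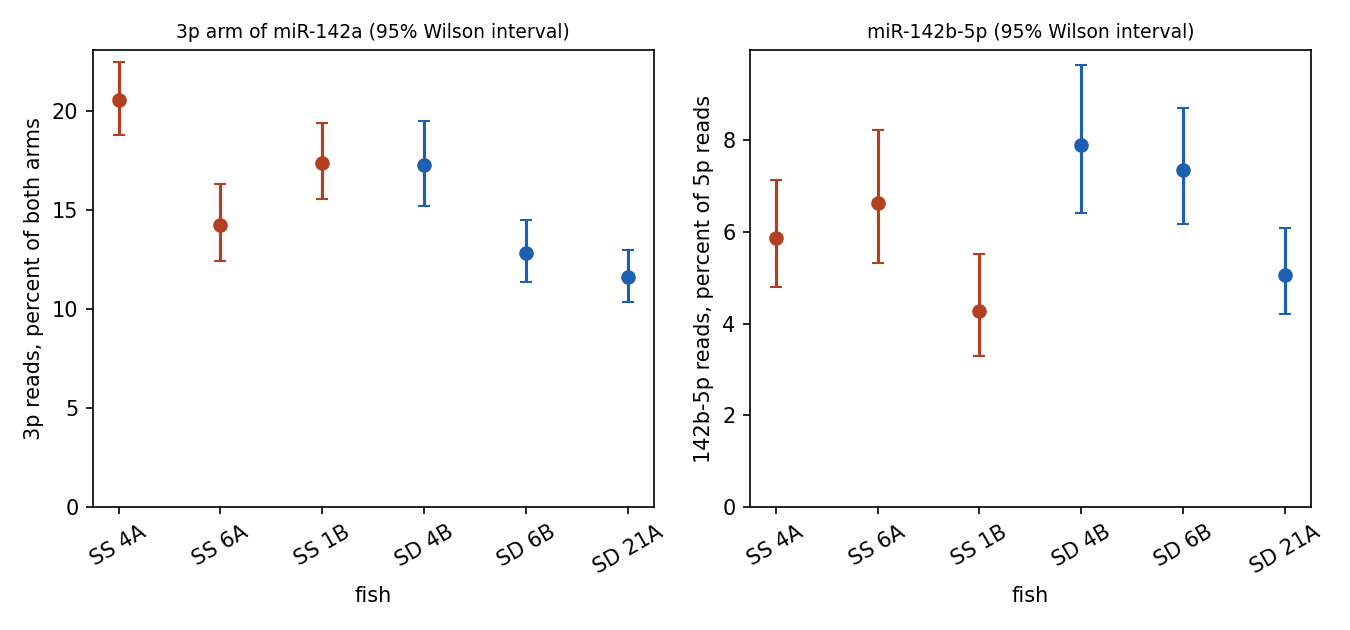
Left, reads of the 3p arm of miR-142a as a percent of both arms in each fish. Right, reads of miR-142b-5p as a percent of the miR-142a-5p and miR-142b-5p reads. Points are fish (SS red, SD blue) and bars are 95% Wilson intervals, which cover counting error only. The 3p share runs from 11.6% to 20.6% and the miR-142b share from 4.28% to 7.89%, with SS and SD fish overlapping in both.

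miR-150, the lymphocyte miRNA, had the smallest fitted difference of the 4 between SS and SD fish. Its most abundant form, ipu-miR-150_R+1, held 99.5% of its counts and stood at 189, 166 and 164 normalized reads in SS fish 4A, 6A and 1B, against 207, 139 and 179 in SD fish 4B, 6B and 21A. All SS fish lay within the range of the SD fish. The log2 fold change was -0.03 (standard error 0.25, adjusted p = 0.958). Summed over its forms miR-150 stood at 174.4 ± 13.2 in SS and 176.1 ± 33.7 in SD fish, and the log2 fold change was 0.01 (standard error 0.32, 95% interval -0.73 to 0.75, adjusted p = 0.992), with a sign that depended on the scaling, the filter and single fish.

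miR-155, the miRNA of activated lymphocytes and macrophages, varied more between fish of a group than between the groups. ssa-miR-155-5p, which held 95.5% of its counts, was read 14, 27 and 124 times in SS fish 4A, 6A and 1B, against 25, 26 and 16 times in SD fish 4B, 6B and 21A. As normalized reads these were 11.4, 38.9 and 118 in SS and 31.8, 31.8 and 9.02 in SD fish. The level in SS fish 1B stood above that of every other fish, while the lowest SS fish, 4A, lay near the lowest SD fish, 21A. The highest fish was at 13.1 times the lowest, the widest range of the 7 tested members.

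The fitted log2 fold change of ssa-miR-155-5p was 1.23 (standard error 0.85, 95% interval -0.75 to 3.20, adjusted p = 0.589), and that of summed miR-155 was 1.21 (standard error 0.86, adjusted p = 0.695), at 57.2 ± 56.1 in SS and 26.4 ± 12.6 in SD fish. Both values rested on SS fish 1B: without it they were 0.01 (adjusted p = 0.992) and -0.07 (adjusted p = 0.957). With the number in the fish labels as a block, which leaves fish 1B and 21A without a partner, they were -0.60 (adjusted p = 0.733) and -0.59 (adjusted p = 0.815).

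The other arm, ssa-miR-155-3p_1ss13AC, was read 0 times in each SS library and 2, 1 and 4 times in SD fish 4B, 6B and 21A. The absence of counts over the 3 SS libraries allows a share of up to 0.564 counts in 1000000, by the limit of 3 counts, while the SD libraries together held 1.15 in 1000000. The limit pools 3 fish and covers counting error only, so it does not separate the groups. It was too low to be tested. It was the one untested member, of 11, whose groups did not overlap, and this was seen in 77 of the 1051 sequences removed by the filter (7.33%). PC-3p-79223_3, a predicted sequence with 3 counts in all that the name rule does not take, shares a run of 21 nt with it. With these counts added, the 3p arm stood at 0, 0 and 1 in SS and at 3, 2 and 4 in SD fish. SS fish 1B, with 124 counts of the 5p arm, had 1 count of the 3p arm, that of PC-3p-79223_3. SD fish 21A, with 16 of the 5p arm, had 4 of the 3p arm. Its library held 3382970 counts, against 1697157 in fish 1B. The 3p counts are too few to compare the arms of these fish.

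miR-223, the miRNA of neutrophils and monocytes, was fitted higher in SS fish without passing the test. Its forms summed to 104.7, 54.7 and 79.4 normalized reads in SS fish 4A, 6A and 1B, against 69.3, 49.5 and 51.3 in SD fish 4B, 6B and 21A. SS fish 4A and 1B lay above all SD fish, and SS fish 6A lay below SD fish 4B. The means were 79.6 ± 25.0 in SS and 56.7 ± 10.9 in SD fish, and the log2 fold change was 0.55 (standard error 0.41, 95% interval -0.41 to 1.50, adjusted p = 0.695). That interval allows a level in SS fish between 0.755 and 2.83 times that in SD fish. SS fish 4A, the highest in miR-223, was also the highest in the erythrocyte miRNAs (7856 normalized reads) and the pancreas miRNAs (607), and their part in its level was not tested. Without this fish the log2 fold change of summed miR-223 was 0.32 (adjusted p = 0.865).

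Both arms of miR-223 gave values above 0. fru-miR-223_R+1, the main form, stood at 85.2, 40.3 and 64.2 in SS and at 59.1, 36.1 and 39.5 in SD fish (fitted log2 difference 0.50, standard error 0.39, adjusted p = 0.633). ola-mir-223-p5 stood at 19.5, 14.4 and 13.3 in SS and at 10.2, 13.4 and 11.8 in SD fish (fitted log2 difference 0.40, standard error 0.36, adjusted p = 0.683). SS fish 4A was the highest in both, and the groups overlapped in both, for ola-mir-223-p5 only by SS fish 1B and SD fish 6B. The ratio of the main form to ola-mir-223-p5 ranged from 2.68 in SD fish 6B to 5.81 in SD fish 4B, with SS fish at 4.38, 2.80 and 4.82.

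**Figure D3:**
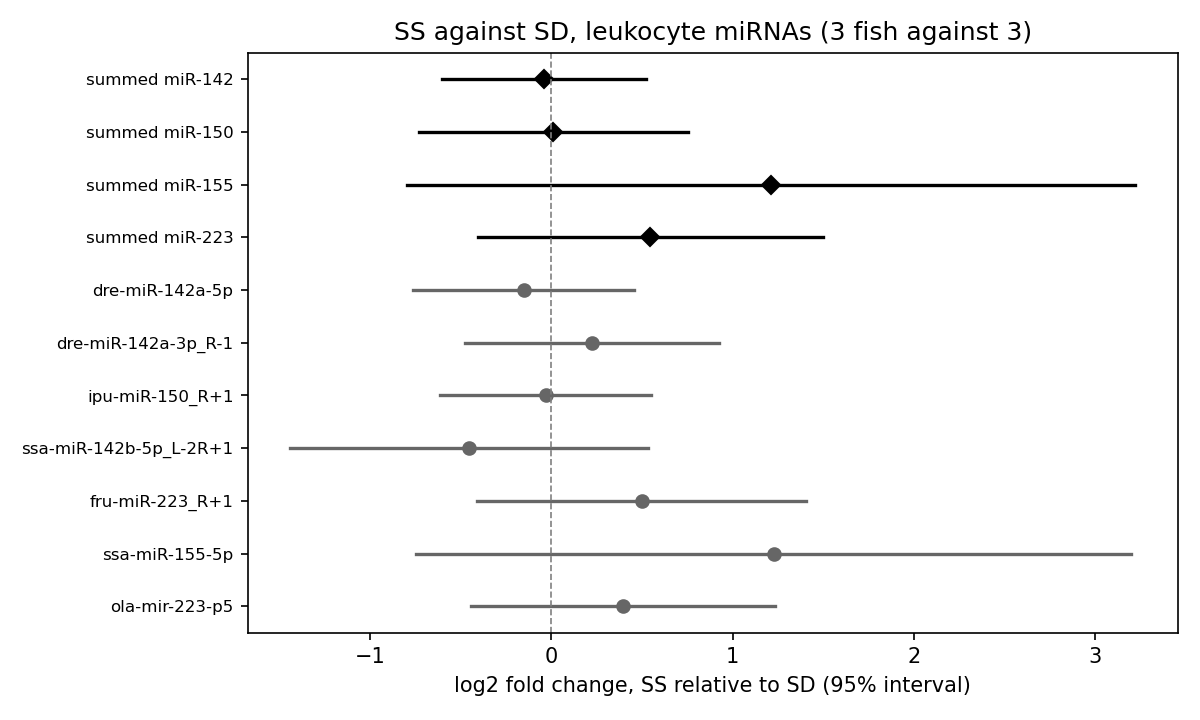
Log2 fold change of SS relative to SD fish, for the 4 miRNAs summed over their forms (diamonds) and the 7 tested sequences (circles). Bars are 95% intervals derived from edgeR's F statistic. Every interval spans 0. The widest are those of miR-155, from -0.80 to 3.22 when summed.

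The 11 members removed by the filter on low counts held 36.8 counts together, 0.303% of the counts of all members, and each had a total of 16 or less. For miR-142 these were ssa-mir-142b-p3, with 16 counts in all 6 libraries together, ssa-mir-142a-1-p3 with 1, and dre-mir-142a-p5_1ss1CA and ccr-mir-142-2-p5_2ss13AC18GA with a part of 1 count each. For miR-150 they were ssa-mir-150-p3_2ss6TG17GT with 4 counts, and ola-mir-150-p3_1ss13GT and dre-miR-150_L+1R+2 with 1 each. For miR-155 they were the 3p form above and dre-miR-155_R+4 with 4 counts, and for miR-223 dre-miR-223_R+4 and ola-mir-223-p5_2ss9AC32CT with 1 each. Of the 18 members, 8 were read in every library and 7 in 1 library only, and 4 had a fractional count, which marks reads shared with other sequences. dre-miR-150_L+1R+2 starts 1 base earlier than the main form, so its seed is shifted to TCTCCCA.

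The members differed widely in how much fish of a group varied. The within-group standard deviation of log2(normalized reads + 1) was 1.35 for ssa-miR-155-5p, rank 18 of 338 from the most variable, and among the 50 tested sequences nearest to it in level 1 was more variable and the median was 0.50. ipu-miR-150_R+1 lay at the other end, at 0.22 and rank 291, with 46 of its 50 neighbours in level more variable. Between them were ssa-miR-142b-5p_L-2R+1 at 0.59 (rank 96), fru-miR-223_R+1 at 0.46 (near the middle of the order), dre-miR-142a-3p_R-1 at 0.37 (rank 205), dre-miR-142a-5p at 0.31 (rank 237) and ola-mir-223-p5 at 0.23 (rank 281). For its level ola-mir-223-p5 was as even as ipu-miR-150_R+1, with 47 of its 50 neighbours more variable. It was read only 8 to 24 times in a library, and the part of counting error was not tested.

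**Figure D4:**
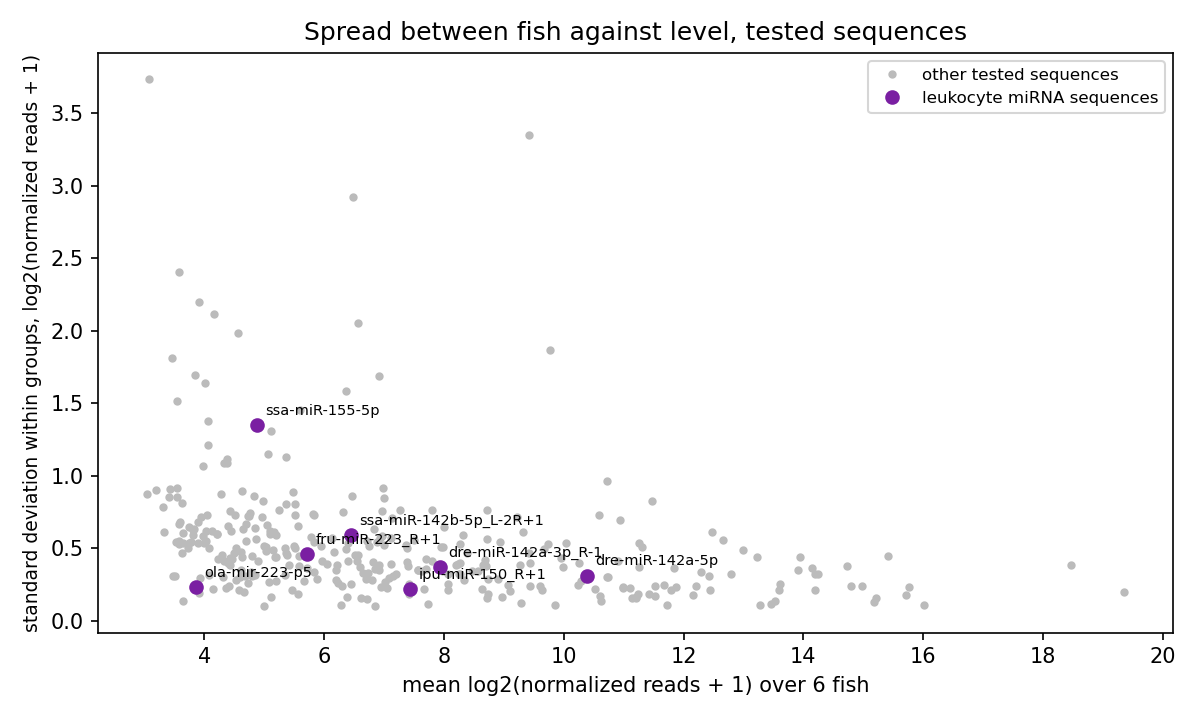
Standard deviation within groups of log2(normalized reads + 1) against the mean over 6 fish, for the 338 tested sequences (grey) and the 7 leukocyte miRNA sequences (purple). ssa-miR-155-5p, at 1.35, lies above nearly all sequences of its level, and ipu-miR-150_R+1, at 0.22, below most.

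No relation between members across the 6 fish passed a test. Over 7 pairs of members, Pearson's r of log2 normalized reads ranged from -0.73 to 0.59, no pair had an exact permutation p under 0.05, and the adjusted p of r was 0.551 or more in each. dre-miR-142a-5p and ipu-miR-150_R+1 gave r = -0.73 (exact p = 0.108) and Spearman's rho = -0.31 (exact p = 0.564), but r was 0.79 when the 2 fish farthest from the median of miR-142a-5p, 6A and 6B, were left out. dre-miR-142a-5p and fru-miR-223_R+1 gave r = -0.61 (exact p = 0.218) and rho = -0.37 (exact p = 0.497), and r was 0.49 without the same 2 fish. The arms of miR-142a gave r = 0.39 (exact p = 0.425) and rho = 0.60 (exact p = 0.242), and 0.71 without these 2 fish. The other pairs, over the same 6 libraries, gave r between -0.32 and 0.59. Among them ssa-miR-155-5p gave r = 0.04 with fru-miR-223_R+1 and -0.86 without SS fish 1B and SD fish 21A. With ipu-miR-150_R+1 it gave r = -0.32 (rho = -0.60), and r was -0.86 without SD fish 4B and 6B. Both values and the first 2 above depended on the 2 fish left out. For dre-miR-142a-5p with ssa-miR-155-5p, r was 0.19 with all fish and 0.20 without 2 of them.

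Sequences of other miRNAs whose pattern over the 6 fish was most like that of a member were ranked. The measure was the root mean square difference of log2(normalized reads + 1) after each pattern was centred on its mean. Candidates came from the 167 sequences with a mean of at least 100 normalized reads. Forms of the member's own miRNA, its other arm among them, were left out. For dre-miR-142a-5p the nearest were ssa-miR-27d-3p (0.163), fru-miR-122_R+2_1ss19TC (0.168) and ssa-miR-15c-5p (0.173). For ipu-miR-150_R+1 they were ssa-miR-30e-5p (0.0928), ssa-miR-16c-5p_R-1 (0.122) and ssa-miR-130b-5p (0.127). For fru-miR-223_R+1 they were ssa-miR-15a-5p_L-2R+1_1ss18GA (0.125), ccr-miR-454b_R+2 (0.142) and dre-miR-210-5p_1ss16CT (0.169). No candidate came as close to ssa-miR-155-5p, for which dre-let-7i stood at 0.866, PC-3p-2728_260 at 0.879 and ssa-miR-146a-3p_R-2 at 0.899. The difference was not scaled for spread, so the distance of ssa-miR-155-5p cannot be told apart from its wide spread between fish. Sequences at its own level were no candidates, by the minimum of 100 normalized reads. With 6 libraries and up to 167 candidates these are descriptions.

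Markers of other cells of the liver and its surroundings were measured beside the leukocyte miRNAs, by lists of miRNA numbers. The erythrocyte miRNAs miR-144 and miR-451 summed to 1822 to 7856 normalized reads in SS and to 4950 to 6719 in SD fish. All 6 tested forms of these 2 miRNAs were fitted below 0 and none passed the test. Summed by miRNA, the fitted log2 difference was 0.02 for miR-144 (adjusted p = 0.992) and -0.48 for miR-451 (adjusted p = 0.797). The median of this summed fit was 0.09, against -0.02 in the fit by sequence. Fitted by arm, miR-144 was at -0.28 for the 5p arm and -0.07 for the forms with no arm named. miR-451, at 4796, 1086 and 2421 in SS fish 4A, 6A and 1B, was lowest in fish 6A, where miR-223 was also lowest of the SS fish and miR-142 highest. Pancreas miRNAs (miR-216, miR-217 and miR-375) summed to 153 to 607 in SS and 193 to 226 in SD fish, with 4 of 4 tested forms fitted above 0, a median of 0.89 and none passing. The high value, with miR-216 at 371, was that of SS fish 4A. Hepatocyte markers ranged from 606401 to 849840 in SS and from 619088 to 741595 in SD fish. Of their tested forms, 6 were fitted above 0 and 6 below, and none passed. At an unadjusted p under 0.05, 3 were higher and 0 lower in SS fish, against 10.9% of all 338 sequences in either direction. These 3 were 3p forms of miR-122 and miR-192. The most abundant form, dre-miR-122_R-1, was at 0.05 (adjusted p = 0.906). Of the tested forms, 3 of endothelium (miR-126), 8 of 14 of stroma (miR-143, miR-145, miR-199 and miR-214) and 0 of 3 of neurons (miR-9 and miR-124) were fitted above 0. Of the muscle miRNAs (miR-1, miR-133 and miR-206) only 1 form, dre-miR-1, was tested, and it was fitted above 0. None of these forms passed. The untested miR-133 averaged 6.73 among SS against 7.24 among SD fish, and miR-206 averaged 0.270 against 1.65. The groups overlapped in both. The part of blood and of pancreas in the levels of the leukocyte miRNAs was not tested.

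Other miRNAs of immune cells, which are also made by many other cells, were read beside the leukocyte miRNAs as a list of 8 miRNA numbers. The list held 41 tested sequences, with 21 fitted above 0 and 20 below. Of these, 2 passed the adjusted threshold: pol-miR-21-3p_R-1_1ss14AT and ssa-miR-29b-2-5p_L-2, the only 2 of all 338 sequences (0.592%) to do so. At an unadjusted p under 0.05, 10 were higher and 2 lower in SS fish, against 10.9% of all sequences in either direction. The list was drawn up with earlier results of these data known, so these shares cannot measure an enrichment. Summed by miRNA, miR-21, miR-29 and miR-146 were fitted above 0 and miR-24, miR-27, miR-181, miR-221 and miR-222 below, and none of the 8 passed the adjusted threshold. miR-146, which is induced by inflammatory signals in mammals, stood at 62791, 61977 and 64966 in SS and 23989, 56161 and 30311 in SD fish (fitted log2 difference 0.85, adjusted p = 0.293). miR-21 stood at 33902, 20062 and 41116 in SS and 9962, 12108 and 12435 in SD fish (fitted log2 difference 1.52, adjusted p = 0.132). miR-29 was at 2219, 2385 and 2528 in SS and 1108, 719 and 1014 in SD fish (1.35, adjusted p = 0.132). In the other direction, summed miR-221 was at 5706, 5668 and 3623 in SS and 6760, 5991 and 8134 in SD fish (-0.46, adjusted p = 0.695). Its arms were fitted in opposite directions. The forms with no arm named were at -0.62 and the 5p arm at 1.24 (adjusted p = 0.455 in both). SS and SD fish did not overlap in summed miR-146, miR-21, miR-29 and miR-221, as in 13.4% of all 149 rows of the summed fit. A difference between these miRNAs and the leukocyte miRNAs was not tested.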

How the data were processed

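Small RNA of 15 to 32 nt from the livers of 3 SS and 3 SD fish was measured, with 1 library per fish. The authors filtered the reads with the ACGT10-miR pipeline and compared them with the fish miRNAs of miRBase release 21 by Bowtie (the submitters' processing notes give 1.1.1), where the first 16 nt could hold 1 mismatch. Values in the deposited table are expected counts: reads matching more than 1 sequence were split, so near-identical forms can exchange reads. Beside them the deposited normalized reads are a signal scaled by the authors with 1 size parameter for each library, in which 0.001 stands for 0 (read here as 0). A second deposited table gives read counts per filtering step. Coordinates of the miRNAs were not used here.

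After rounding of the expected counts, edgeR 4.0.16 in R 4.3.3 filtered the table by filterByExpr with a minimum count of 10 and compared SS with SD fish by TMM normalization and quasi-likelihood tests, adjusted after Benjamini and Hochberg over all 338 sequences left and a threshold of 0.05. The same fit was made on forms summed by miRNA number. Only the fit by sequence was tested on simulated data. All adjusted p-values of the comparison are from edgeR unless another tool is named. Arm ratios and relations between members were tested by exact permutation, two-sided. The edgeR p-values test a group difference against the variation between fish of a group. The permutation p-values come from regrouping the fish or, for relations, from re-pairing their values.

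The members, lists and named sequences were chosen with earlier results of these data known. Every member was named, and full statistics were given for those left by the filter. Beside them the 3 sequences of other miRNAs nearest in pattern to the main form of each miRNA were named. Of the other immune miRNAs, miR-21, miR-29, miR-146 and miR-221 were chosen for printing after their values were seen, since SS and SD fish did not overlap in them. The PC sequences were found by a shared seed or run of bases. Alternatives were DESeq2 1.42.0, limma 3.58.1 on log2(normalized reads + 1) or + 10, other scalings and filters, fractional counts, single arms or forms, the label numbers of the fish as a block, and the omission of single libraries. Python 3.11.15 was used for sums, permutations and plots, with numpy 2.4.6, pandas 2.3.3, scipy 1.17.1 and matplotlib 3.10.9.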

Additional observations from a re-analysis of the deposited data

How the results depend on the processing

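No member passed the adjusted threshold under any alternative run, and the signs of miR-223, of miR-142b-5p and of the miR-142a arm ratio (a difference of -0.58 to -0.23 in log2) held in each. Their sizes did not: with 1 library left out, summed miR-223 was 0.32 (without SS fish 4A) to 0.79 and miR-142b-5p -0.76 (without SD fish 21A) to -0.12 (without SD fish 6B). The signs of values near 0 did not hold, and the cause was not tested. The sign of summed miR-155, 1.21 as reported, turned as well. It was -0.07 without SS fish 1B and -0.59 with the label number as a block. For summed miR-150, 0.01 as reported, the log2 fold change was -0.0130 with RLE size factors, -0.0124 with the authors' size parameter, -0.0122 with DESeq2, -0.0842 with total counts only, -0.132 with no filter, -0.0905 with a minimum count of 50, -0.0312 for its most abundant form alone, -0.0671 for the forms with no arm named, and -0.195 (without SD fish 6B) to 0.185 (without SD fish 4B) with 1 library left out. For ipu-miR-150_R+1, -0.03 as reported, it was 0.0023 and 0.0013 by limma with 1 and 10 added, 0.0027 with no filter, and -0.175 to 0.0404 with 1 library left out. Summed miR-142 gave 0.19 for the 3p arm alone, and -0.128 to 0.0948 with 1 library left out, above 0 without SS fish 4A or SD fish 6B. dre-miR-142a-5p gave -0.31 to 0.10, above 0 without SD fish 6B, and dre-miR-142a-3p_R-1 -0.0222 to 0.382, below 0 without SD fish 21A. Summed miR-155 gave -0.0721 (without SS fish 1B) to 1.74 (without SS fish 4A). The rank of ola-mir-223-p5 in spread, 281, was 226 by edgeR's tagwise dispersion.

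The labels give fish 4A and 4B, and 6A and 6B, the same number without saying that these were pairs. Deviations from the group means correlated at 0.15 and 0.45 in these pairs, over sequences. Each SS fish of the 2 correlated best with its own number. Fish 1B and 21A, with different numbers, correlated at 0.30, above the 0.15 of fish 4A and 4B. Deviations within a group sum to 0, so the correlations are not independent. With the label number as a block, ssa-miR-155-5p was -0.60, summed miR-155 -0.59 and ipu-miR-150_R+1 0.0190. With it 0 of the 338 sequences passed, against 2 without it. DESeq2 called 7, the test with no filter 18 of 1283, total counts only 1, and leaving out a library 0 to 6, the latter without SS fish 6A. With 3 fish a group, the interval of summed miR-155 allows a level in SS fish between 0.576 and 9.33 times that in SD fish. Which size of difference could be detected at this number of fish and depth was not tested.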

Other observations

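Among the 1371 sequences that are not members, 1 shared a run of at least 15 nt with the reverse complement of a member. PC-5p-58995_4, a predicted sequence of 22 nt, matches the reverse complement of ssa-miR-155-3p_1ss13AC over 21 nt and carries the seed of miR-155-5p, which lies on the opposite arm. The 3 sequences are printed 5′ to 3′ to show the match.
PC-5p-58995_4: ctaatgctgacatgctaggtgt
ssa-miR-155-3p_1ss13AC: cacctagcatgtcagcattagc
reverse complement of ssa-miR-155-3p_1ss13AC: gctaatgctgacatgctaggtg
It was read 0 times in each SS library and 1, 2 and 1 times in SD fish 4B, 6B and 21A, the same libraries in which ssa-miR-155-3p_1ss13AC was read 2, 1 and 4 times. At 4 counts it was not tested, and groups without overlap were seen in 77 of the 1051 sequences removed by the filter (7.33%).

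PC-3p-53687_5, which shares the seed of miR-155-3p, was read 1, 0 and 0 times in SS fish 4A, 6A and 1B and 1, 2 and 1 times in SD fish 4B, 6B and 21A. dre-miR-155_R+4, the long 5p form of miR-155, was read 0, 1 and 2 times in SS and 0, 0 and 1 times in SD fish.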
